A study of Homo sapiens with 24 samples.

Results

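The 10 genes described here encode proteins of mitosis and of the cell division cycle and lie on human chromosome 1. They are CDC20, KIF2C, CENPF, NEK2, ASPM, KIF14, UBE2T, NUF2, CDCA8 and CKS1B. Each was found by its gene symbol and had 1 row among the 11579 rows of the deposited expression table, so that 10 of 10 could be described. They were read out in HEK293 cells, an established human embryonic kidney line, by poly-A RNA sequencing of transcript 3′ ends. The cells were untransfected or transiently transfected with pCMV-flag (empty vector), pCMV-EVI1-WT-flag (EVI1-WT) or pCMV-EVI1-AQA-flag (EVI1-AQA). EVI1 is a zinc finger transcription factor linked to myeloid leukaemia, and the AQA form has a carboxy-terminal ATM target site that cannot be phosphorylated. In each of these 4 states the cells received 150 μM H2O2, an oxidant that damages DNA, or no treatment, for 8 h, which gave 8 groups of 3 samples with 1 sample of every group in each of 3 batches. Both EVI1 forms were driven by a viral promoter, and in a transient transfection some cells carry no plasmid, so the values are averages over both kinds of cell.

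Cells divide after copying their DNA, and the transcripts of most mitotic proteins rise towards the end of that cycle and are lost after division. DNA damage activates checkpoints that hold cells before mitosis. Promoters of mitosis genes often carry a CCAAT box. They often carry a cell cycle homology region (CHR) as well, and through the CHR they are repressed in resting or arrested cells. CENPF and NUF2 act at the kinetochore, where chromosomes are attached to spindle microtubules. CDCA8 (borealin) is a subunit of the chromosomal passenger complex, and KIF2C is a kinesin that takes microtubules apart at the centromere. ASPM acts at spindle poles, NEK2 is a kinase that separates centrosomes, and KIF14 is a kinesin of cytokinesis. CDC20 activates the anaphase-promoting complex. CKS1B binds cyclin-dependent kinases and helps to degrade the inhibitor p27, and UBE2T is a ubiquitin-conjugating enzyme of the Fanconi anaemia DNA repair pathway rather than part of the spindle.

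Promoters are shown because most of these transcripts moved together across the samples, as described further on. The search covered the RefSeq window from 250 bases before to 50 bases after each start site on GRCh38.p14, and all 10 genes had a window. The letters TTTGAA and TTCGAA, with TTCAAA for the other strand, were taken for the CHR, and CCAAT, with ATTGG for the other strand, for the CCAAT box. The CHR letters occurred in 8 of 10 windows, against 16.4% of 34943 windows of all genes, and in 5 of 10 when only the bases before the start were searched, against 14.4%. The CCAAT letters occurred in 8 of 10 windows, against 34.6% of all windows. The 160 bases before the RefSeq start of 4 genes follow, 5′ to 3′ on the strand of the gene, with every such match in capitals. CDC20 and CDCA8 hold both motifs. UBE2T also holds both, and its transcript did not vary with the rest. KIF2C holds neither, and its transcript varied closely with that of CDCA8. Whether the motifs relate to this variation was not tested. In CDCA8 the last capitals are a CHR match and a CCAAT match that overlap. The windows lie at chr1:43358821-43358980 (CDC20, plus strand), chr1:37692356-37692515 (CDCA8, plus), chr1:202341937-202342096 (UBE2T, minus) and chr1:44739677-44739836 (KIF2C, plus).
CDC20: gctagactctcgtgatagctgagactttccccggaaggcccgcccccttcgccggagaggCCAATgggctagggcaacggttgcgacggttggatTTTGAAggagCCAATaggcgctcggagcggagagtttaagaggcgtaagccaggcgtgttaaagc
CDCA8: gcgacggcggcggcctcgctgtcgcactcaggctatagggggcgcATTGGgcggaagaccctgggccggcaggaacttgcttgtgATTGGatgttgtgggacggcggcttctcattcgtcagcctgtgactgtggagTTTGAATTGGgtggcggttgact
UBE2T: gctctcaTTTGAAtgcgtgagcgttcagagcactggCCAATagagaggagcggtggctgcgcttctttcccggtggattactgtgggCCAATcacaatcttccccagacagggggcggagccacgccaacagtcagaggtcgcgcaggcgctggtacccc
KIF2C: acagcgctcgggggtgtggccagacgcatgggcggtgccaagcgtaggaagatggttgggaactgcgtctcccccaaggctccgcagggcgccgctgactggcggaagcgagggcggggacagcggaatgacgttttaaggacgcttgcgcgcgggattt

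Beyond these genes, CENPF held 3 CCAAT matches before the start and NEK2 held 2, while NUF2 held no CCAAT match in the window. A match is a description of letters and was not tested as a binding site.

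All values below are deposited log2 values in which every row had been centred to a mean of 0 over the 8 samples of each batch. A value of 0.50 therefore lies 0.50 log2 units above the mean of its own batch, no absolute level can be read, genes cannot be ranked by abundance, and depth is unknown. For the same reason the cell line could not be checked against its markers. In RNA from whole cultures, fewer cells in mitosis and less of a transcript in each cell cannot be told apart. The row that separated the samples by EVI1 plasmid was labelled CACNB3, not EVI1, a choice made with its values in view. In 3 libraries, all from cells exposed to H2O2, that row went against the labels. The library labelled empty vector replicate 2 read 4.36, while the libraries labelled EVI1-WT replicate 2 and EVI1-AQA replicate 1 read -4.38 and -2.60. The comparisons that rest on these 3 libraries were repeated without them. The SD over all rows was 0.42 in both untransfected untreated replicates 2 and 3 and 0.36 in untransfected H2O2 replicate 2, against 0.25 to 0.34 in the other 21 libraries. For the mitosis genes the row labels on chromosome 1 were used. The row labels of chromosomes 2 to 22 were in doubt. Of 40 mitosis genes listed for those chromosomes 8 had a row, against 30 of 32 listed for chromosomes 1 and X. Those 8 rows (median pairwise r -0.053) were not used further. The 30 rows of other mitosis genes on chromosomes 1 and X had a median of -0.0051 as well, with 35 of 435 pairs above 0.5, so these medians do not tell right labels from wrong ones.

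**Figure D1:**
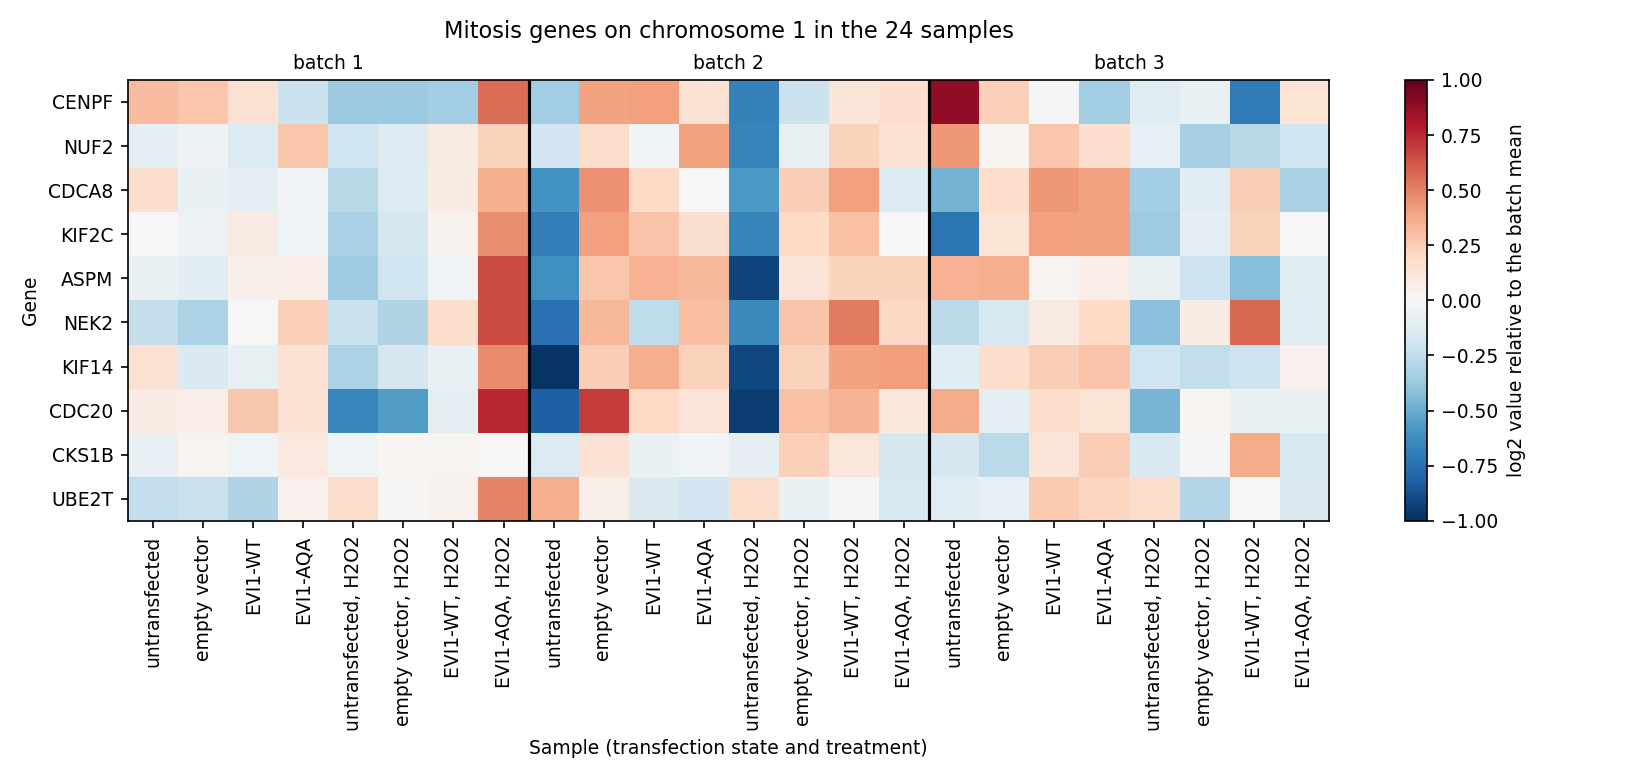
Log2 value of each gene (rows) in each of the 24 samples (columns, by batch), relative to the mean of that gene in the batch. The darkest blue fills the untransfected samples of batch 2, and the EVI1-AQA H2O2 sample of batch 1 is the reddest column, with 6 of 10 genes at their highest value.

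The transcripts varied more from sample to sample than the typical row, with a median SD of 0.35 over the 24 samples against 0.27 over all rows. KIF14 had the lowest single value of the 10 genes and ran from -0.98 in untransfected untreated replicate 2 to 0.48 in EVI1-AQA H2O2 replicate 1. CDC20 ran from -0.95 in untransfected H2O2 replicate 2 to 0.75 in the same EVI1-AQA library. At the other end, CKS1B had an SD of 0.15 and UBE2T of 0.21. The lowest value of 6 of 10 genes fell in an untransfected sample of batch 2, and the lowest group mean of 9 of 10 genes was that of an untransfected group, in 7 of them the untransfected cells exposed to H2O2. The exception was UBE2T, whose highest group mean was in that group (0.18 ± 0.0073, SD, n = 3).

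Across the 8 groups, the moderated F-test of limma called KIF2C (adjusted p = 0.0249) and NEK2 (adjusted p = 0.0293). The 2 of 10 stand beside 18.4% of all rows, and at an unadjusted p under 0.05 there were 5 of 10 beside 36.7%. With the batch as a block neither was called, at adjusted p = 0.0611 for KIF2C and 0.0689 for NEK2. Neither was called without replicate 2 or without replicate 3, and without the 3 libraries that went against their labels only KIF2C was. The order of KIF2C group means ran from -0.47 in untransfected untreated cells and -0.45 in untransfected cells with H2O2, through -0.019 in empty vector cells with H2O2, to 0.26 in untreated EVI1-WT cells. The 5 groups from 0.16 to 0.26 lay within each other's SD (0.13 to 0.27). NEK2 had its lowest group mean in untransfected cells with H2O2 (-0.43) and its highest in EVI1-WT cells with H2O2 (0.42 ± 0.21, SD, n = 3).

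Most of the genes shared a pattern over the samples, and a few stood apart. Pearson correlations over the 24 samples are given as a description, since all genes share the same libraries and the same centring within batches. The median over 45 pairs was 0.56, with 25 pairs above 0.5, while the median over pairs of all chromosome 1 rows was near 0 (4.7e-05). CDCA8 and KIF2C, both at the centromere, had the highest value (0.94), followed by ASPM and KIF14 (0.88). The sequences of CDCA8 and KIF2C printed above share none of the capital motifs, and a link between motifs and correlation was not tested.

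The genes that stood apart did so in different ways. CENPF followed ASPM (0.77), CDC20 (0.68) and NUF2 (0.58) but hardly followed KIF2C (0.18) or NEK2 (0.11). CKS1B followed CDCA8 and NEK2 (0.62 each) and went against CENPF (-0.39). UBE2T followed none of them, with r = -0.12 against the mean of the other 9.

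The shared pattern was not the same in size in every batch. The median pairwise r was 0.68 in batch 1, 0.78 in batch 2 and 0.24 in batch 3. Without replicate 2 it was 0.41, with 17 of 45 pairs above 0.5, against 0.52 without replicate 1 and 0.73 without replicate 3. With the group means removed it was 0.50, and then 0.42 in untreated and 0.62 in H2O2 samples. In the 18 transfected samples alone it was 0.49, and without the 3 libraries that went against their labels 0.52.

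**Figure D2:**
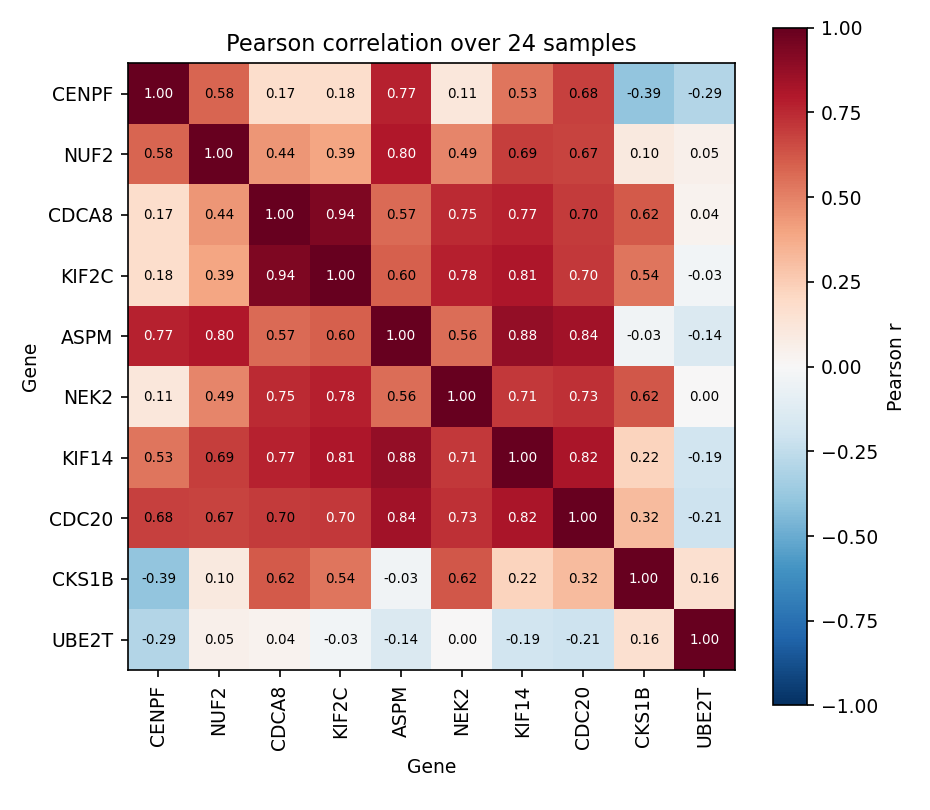
Pearson correlation of each pair of the 10 genes over the 24 samples, from -1 (blue) to 1 (red). CDCA8 with KIF2C (0.94) and ASPM with KIF14 (0.88) are the deepest red off the diagonal, the UBE2T column is pale or blue, and CKS1B ranges from -0.39 with CENPF to 0.62 with NEK2.

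Among 1382 other rows of chromosomes 1 and X whose labels matched the annotation, DEPDC1 was most like the mean of the 10 genes (r = 0.89). It was followed by PSRC1, a spindle-associated protein (0.87), the histone demethylase KDM5B (0.87) and the chromokinesin KIF4A on chromosome X (0.85). PHACTR4 (0.84), the centriole assembly factor STIL (0.79), DCAF6 (0.79) and PIK3R3 (0.78) completed the 8 nearest. The rows most opposed were GNG4 (-0.84), the translation initiation factor EIF2S3 (-0.84), the ceramide synthase CERS2 (-0.82) and POGK (-0.78). DEPDC1, PSRC1, KIF4A and STIL belong to a list of other mitosis genes on chromosomes 1 and X, of which 30 had a row. In that list 8 of 30 had r above 0.5, against 108 of the 1382 rows and 0 of 14 genes listed for DNA replication and S phase. Neither list was strict, since the first also held HDGF and HMGB3 and the second CCNL2 and CHTOP.

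The comparison with H2O2 addresses the transcripts 8 h after oxidative damage. Averaged over the 4 transfection states, 0 of 10 mitosis genes passed the test at an adjusted p under 0.05 (limma, 12 against 12 samples), beside 16.5% of all rows. A test without moderation and exact sign flips over the 12 same-batch pairs also called 0. At an unadjusted p under 0.05, 2 of 10 were lower, CENPF and NUF2, beside 31.1% of all rows. The median difference of the 10 genes was -0.094 on the log2 scale, against 0.0016 over all rows.

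CENPF had the lowest estimate, -0.32 (SE 0.12, 95% interval -0.57 to -0.061, adjusted p = 0.0807, limma). In untreated cells it read 0.31, -0.35 and 0.89 in the 3 untransfected replicates, and 0.27, 0.40 and 0.24 with the empty vector. With H2O2 it read -0.37, -0.68 and -0.12 in untransfected cells, and -0.37, -0.22 and -0.076 with the empty vector. The empty vector groups did not overlap, and the untransfected groups did. With EVI1-WT, CENPF read 0.15, 0.41 and -0.020 untreated and -0.35, 0.12 and -0.70 with H2O2. CENPF was thus lower with H2O2 in all 9 same-batch pairs of these 3 states. It was higher in all 3 pairs with EVI1-AQA, where it read -0.22, 0.14 and -0.35 untreated and 0.56, 0.17 and 0.13 with H2O2. Those EVI1-AQA differences were 0.78, 0.026 and 0.48 in batches 1, 2 and 3. The H2O2 values 0.56 (EVI1-AQA), -0.22 (empty vector) and 0.12 (EVI1-WT) came from the 3 libraries that went against their labels. Without the 3 libraries that went against their labels the averaged CENPF difference was -0.40 and passed the test (adjusted p = 0.0451, limma), and after quantile normalization it was -0.32 and passed as well (adjusted p = 0.0440, limma).

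NUF2, the other kinetochore gene, differed by -0.21 (SE 0.092, 95% interval -0.40 to -0.021, adjusted p = 0.118, limma) and was lower in 10 of 12 same-batch pairs. Its 2 exceptions were EVI1-WT pairs, in which it was higher by 0.23 and 0.26. The pair with 0.26 contained EVI1-WT H2O2 replicate 2, a library that went against its label. ASPM was lower with H2O2 in 11 of 12 pairs, with an averaged difference of -0.18 (SE 0.12, 95% interval -0.43 to 0.073, adjusted p = 0.328, limma). In untransfected cells the ASPM differences of the 3 batches were close together, -0.28, -0.31 and -0.42. The single pair in which ASPM was higher, by 0.58, contained EVI1-AQA H2O2 replicate 1, 1 of the 3 libraries that went against their labels.

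CDC20 was lower in 9 of 12 pairs, by -0.23 on average (95% interval -0.51 to 0.058). Its untransfected values moved from 0.072, -0.81 and 0.37 to -0.66, -0.95 and -0.47, so that the groups overlapped only through replicate 2 of the untreated cells. KIF2C, CDCA8 and KIF14 had averaged H2O2 differences of -0.063, -0.098 and -0.089, with 95% intervals from -0.34 to 0.16 at their widest. NEK2 leaned the other way, at 0.13 (95% interval -0.080 to 0.35), higher in 8 of 12 pairs. UBE2T (0.065) and CKS1B (0.023) had 95% intervals of -0.13 to 0.26 and -0.11 to 0.15.

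Within single transfection states, 0 of 40 gene comparisons with H2O2 were called (limma), beside 1.22% of all rows, and 3 of 40 had an unadjusted p under 0.05, beside 16.3%. Those were CENPF in untransfected cells (-0.67, SE 0.24) and with the empty vector (-0.53, SE 0.24), and NEK2 with EVI1-WT (0.48, SE 0.21). NEK2 with EVI1-WT read 0.0065, -0.26 and 0.089 untreated and 0.18, 0.52 and 0.57 with H2O2. Those 2 groups did not overlap, and the 0.52 came from replicate 2, a library that went against its label. Without the 3 such libraries the NEK2 difference was 0.43 (SE 0.21) and the CENPF difference with the empty vector was -0.53 (SE 0.26), both with an unadjusted p above 0.05.

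**Figure D3:**
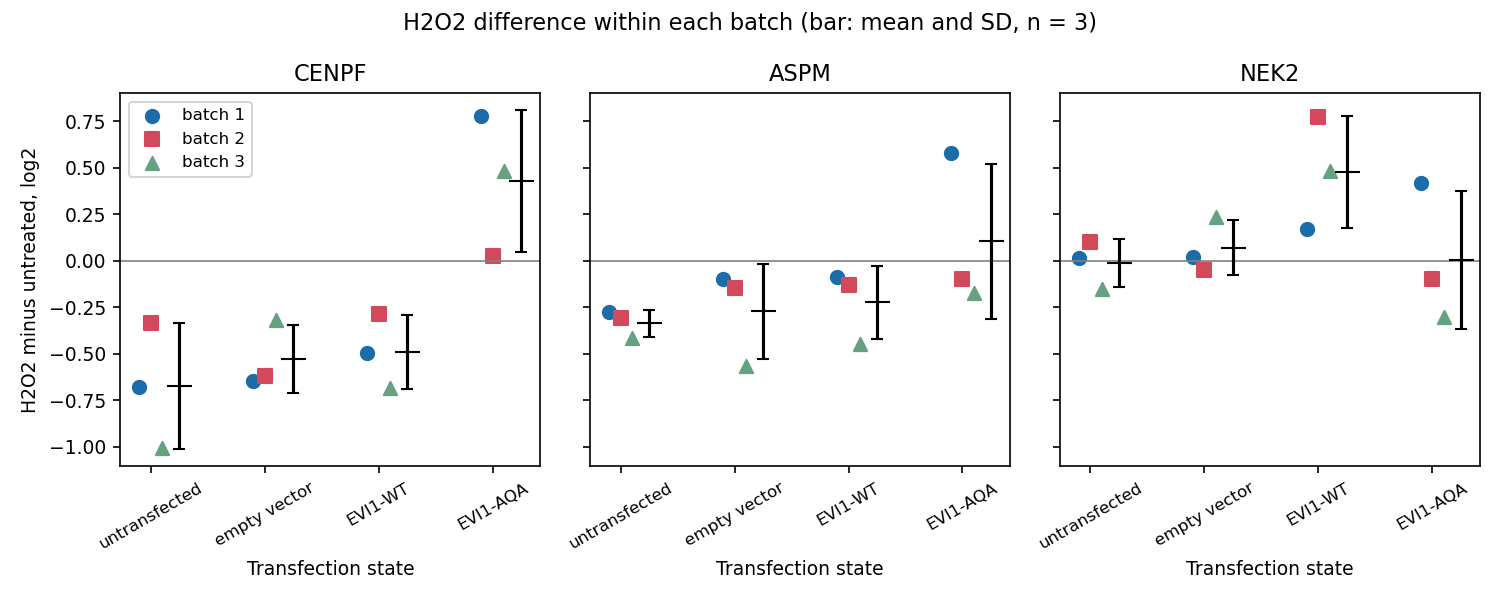
Difference with H2O2 within each batch (log2, vertical) for CENPF, ASPM and NEK2 in the 4 transfection states. Symbols mark the batches and bars the mean with SD (n = 3). CENPF lies below 0 in 9 of 9 pairs outside EVI1-AQA and above 0 in the 3 EVI1-AQA pairs.

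The same cells did respond to H2O2 elsewhere on chromosome 1. For H2O2 averaged over the 4 transfection states, 16.5% of all rows were called in either direction. Of 10 stress response genes, 2 were called higher and 1 lower. GADD45A, which restrains the cell cycle after damage, rose by 1.00 (SE 0.23, adjusted p = 0.00617, limma). The stress transcription factor ATF3 rose by 0.54 and was higher in 8 of 12 pairs. TXNIP, the inhibitor of thioredoxin, fell by 0.97. The rest of that list, BTG2 and PHLDA3 among them, were not called. Of the 14 genes listed for DNA replication and S phase, 5 rose and none fell. They were the exonuclease EXO1 (0.43, SE 0.086), the transcription factor E2F2 (0.43, SE 0.11), DTL (0.29), the deubiquitinase USP1 (0.24) and RPA2, a subunit of the single-strand binding complex (0.16). EXO1 and E2F2 were higher in 12 of 12 pairs. With the batch as a block, RPA2 was not called (adjusted p = 0.0633, limma) and the other 4 were. PARP1 of the same list was called lower after quantile normalization, without moderation and by exact sign flips. All 5 were called without the 3 libraries that went against their labels. With fewer samples the S phase count was 1 without replicate 1, 1 without replicate 2 and 3 without replicate 3, with EXO1 called each time, while the share of all rows called fell to 5.02%, 5.14% and 10.5%. ATF3 was lost without replicate 1, without replicate 2, without those 3 libraries and by exact sign flips, and GADD45A without replicate 1.

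Among the 30 other mitosis genes with a row, 1 rose and 1 fell with H2O2, beside 16.5% of all rows in either direction. The centromere protein gene CENPL rose by 0.39 (SE 0.077, adjusted p = 0.00206, limma), and LBR, which encodes the lamin B receptor of the nuclear envelope, fell by 0.33 (SE 0.068, adjusted p = 0.00319, limma). LBR was not called without replicate 2. Without the 3 libraries that went against their labels, DEPDC1 and KIF4A, nearest to the mitosis genes in the correlations, fell as well. Whether the S phase and mitosis genes differ in their response was not tested.

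Transfected and untransfected cells were compared outside the plan, so the p-values of that comparison are a description only. The planned comparison, empty vector against untransfected cells, called 1 of 10 genes (limma), beside 2.28% of all rows. With the batch as a block it called 0, beside 0.363%. With the mean of the 3 plasmids set against untransfected cells over both treatments, a comparison chosen after the values were seen, 5 of 10 genes were higher in transfected cells, beside 21.4% of all rows in either direction. At an unadjusted p under 0.05 there were 7 of 10, beside 35.6%. The called genes were KIF2C, NEK2, CDC20, KIF14 and CDCA8, and the same 5 were called with the batch as a block. All 5 calls were lost without replicate 2, where 2.68% of all rows were called. Without replicate 3 CDCA8 was lost (adjusted p = 0.0996, limma), while ASPM and NUF2 were called.

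KIF2C was higher in transfected cells by 0.61 (SE 0.11, 95% interval 0.38 to 0.84, adjusted p = 9.8e-04, limma). In untransfected cells KIF2C read 0.0041, -0.69 and -0.73 untreated and -0.32, -0.67 and -0.36 with H2O2. In the 18 transfected samples it ran from -0.17 through a median of 0.15 to 0.47. Only untransfected untreated replicate 1 lay within that range. Without replicate 2 the KIF2C difference was 0.47 and missed the threshold (adjusted p = 0.0883, limma).

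NEK2 was higher by 0.56 (SE 0.12, adjusted p = 0.00293, limma). Its 6 untransfected values, -0.24, -0.74 and -0.26 untreated and -0.22, -0.65 and -0.42 with H2O2, were all below 0, and 3 of them lay within the range of the 18 transfected samples (-0.32 to 0.66, median 0.19). CDCA8, the partner of KIF2C in the correlations, was higher by 0.47 (SE 0.12, adjusted p = 0.0104, limma). It read 0.17, -0.60 and -0.48 in untransfected untreated cells and -0.27, -0.58 and -0.35 with H2O2, against -0.32 to 0.45 in transfected samples.

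CDC20 was higher by 0.54 (SE 0.16, adjusted p = 0.0183, limma), with differences of 0.39, 1.17 and 0.067 in batches 1, 2 and 3. KIF14 was higher by 0.52 (SE 0.14, adjusted p = 0.0121, limma), with differences of 0.11, 1.26 and 0.20. Batch 2 thus gave the greatest share of both. ASPM had an estimate of 0.38 (95% interval 0.085 to 0.67, adjusted p = 0.0599, limma), with -0.18 in batch 3. CENPF (0.068), NUF2 (0.18), CKS1B (0.15) and UBE2T (-0.12) were not called either. Of the 30 other mitosis genes 8 were higher and 2 lower in transfected cells, beside 21.4% of all rows in either direction. With the batch as a block the counts were 5 and 0, beside 16.1%. Without replicate 2 they were 0 and 0, beside 2.68%, and without replicate 3 they were 2 and 0, beside 10.9%.

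The mean of the 10 genes was lower in untransfected than in transfected cells by 0.17 in batch 1, 0.71 in batch 2 and 0.12 in batch 3. The untransfected samples of batch 2 stood at -0.47 untreated and -0.59 with H2O2. Those were 2 of the 3 libraries with the widest spread over all rows, and the part of that spread in the result was not tested. Without the 3 libraries that went against their labels the same 5 genes were called.

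**Figure D4:**
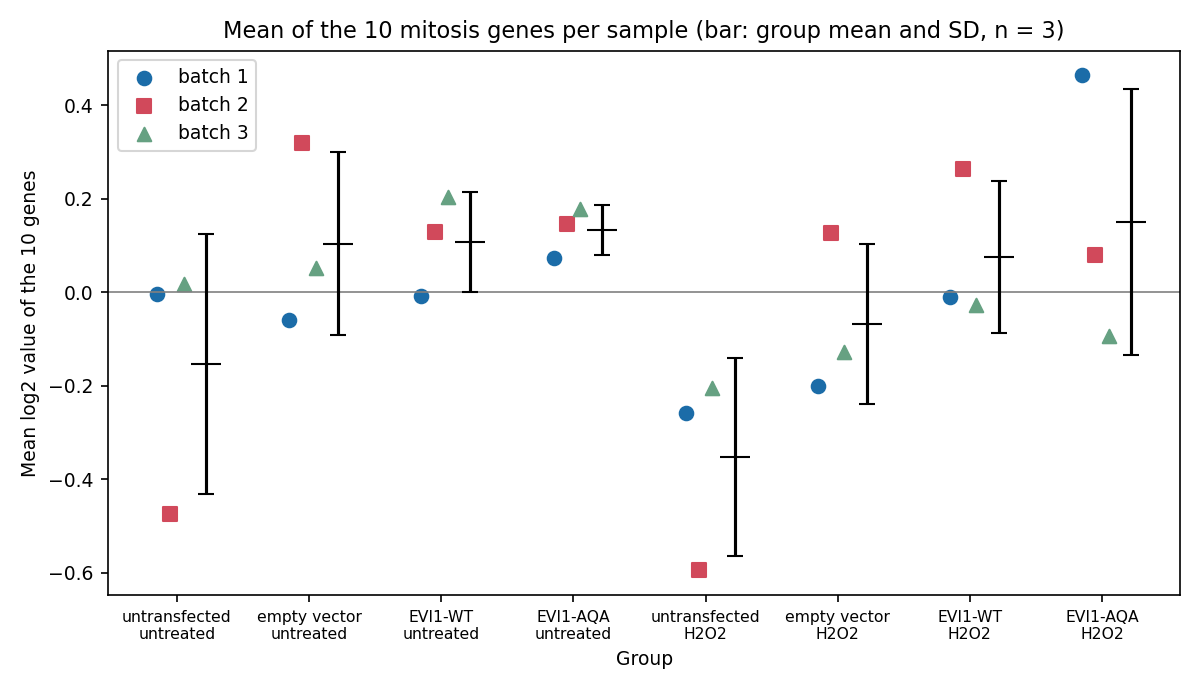
Mean log2 value of the 10 genes in each sample, by group. Symbols mark batches, and bars give the group mean with SD (n = 3). The untransfected samples of batch 2 are lowest (-0.47 and -0.59) and EVI1-AQA H2O2 replicate 1 is highest (0.46).

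The empty vector alone was also set against untransfected cells. Its H2O2 replicate 2 is a library that went against its label. Here 1 of 10 genes was called, KIF2C, higher by 0.53 (SE 0.14, 95% interval 0.25 to 0.81, adjusted p = 0.0455, limma), beside 2.28% of all rows. At an unadjusted p under 0.05 there were 5 of 10, all higher (CDC20, KIF2C, NEK2, KIF14 and CDCA8), beside 20.8%. With the batch as a block KIF2C was not called (adjusted p = 0.0944, limma). It was not called either without replicate 2 (0.31, adjusted p = 0.728), without replicate 3 (0.51, adjusted p = 0.217, limma) or without the 3 libraries that went against their labels (0.48, adjusted p = 0.124, limma). The mean of the 10 genes differed by -0.00020, 0.76 and 0.055 in batches 1, 2 and 3.

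Each EVI1 form was also set against untransfected cells, and every called gene was higher with EVI1. KIF2C, NEK2, KIF14 and CDCA8 were called with EVI1-WT, 4 of 10 beside 18.7% of all rows. CDC20, KIF2C, NEK2 and KIF14 were called with EVI1-AQA, 4 of 10 beside 15.6%. With the 3 libraries that went against their labels left out, KIF2C, NEK2 and CDCA8 were called with EVI1-WT and KIF2C, NEK2 and KIF14 with EVI1-AQA, and the batch as a block gave the same sets. Without replicate 2 there were 0 calls for either form, and without replicate 3 EVI1-WT had 0 calls and EVI1-AQA 3 (NEK2, ASPM and NUF2). These comparisons share their untransfected samples with the one above.

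Against the empty vector, the study's own control for EVI1, none of the 10 genes differed detectably. For EVI1-WT averaged over both treatments, 0 of 10 were called (limma), beside 0% of all rows, and at an unadjusted p under 0.05 it was 0 of 10 beside 8.19%. The estimates ran from -0.11 for CENPF (95% interval -0.47 to 0.25) to 0.20 for NEK2 (95% interval -0.11 to 0.50). For EVI1-AQA, 0 of 10 were called (limma), beside 0.0345%, and at an unadjusted p under 0.05 it was 0 of 10 beside 9.89%. The EVI1-AQA estimates ran from -0.048 for CDCA8 (95% interval -0.36 to 0.26) to 0.26 for NEK2 (95% interval -0.042 to 0.56). The highest upper bound with EVI1-AQA was that of KIF14 (95% interval -0.11 to 0.61). Differences of up to about these bounds are thus not excluded by the samples. In the fit that left out the 3 libraries that went against their labels, 0 of 10 were called for either form, with estimates from -0.21 (CENPF) to 0.24 (NEK2) for EVI1-WT and from -0.084 (CDCA8) to 0.28 (KIF14) for EVI1-AQA.

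Between EVI1-AQA and EVI1-WT, 0 of 10 were called (limma), beside 0%, and 0 of 10 at an unadjusted p under 0.05, beside 5.39%. CDCA8 had the lowest estimate (-0.17, 95% interval -0.48 to 0.14) and ASPM the highest (0.17, 95% interval -0.18 to 0.53). In the fit without those libraries the lowest was again CDCA8 (-0.22), the highest was KIF14 (0.21), and 0 were called. Within 1 treatment, the 8 plasmid comparisons gave 0 of 80 calls (limma), beside 0.0335% of all rows, and 8 of 80 at an unadjusted p under 0.05, beside 9.58%. Of those 8, 5 were empty vector values above untransfected ones.

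The remaining 3 of the 8 came from cells exposed to H2O2. CENPF was higher with EVI1-AQA than with the empty vector (0.51, SE 0.24) and than with EVI1-WT (0.60, SE 0.24), and CKS1B was lower with EVI1-AQA than with EVI1-WT (-0.28, SE 0.13). CKS1B read 0.028, 0.11 and 0.37 with EVI1-WT and -0.0028, -0.17 and -0.15 with EVI1-AQA, so the groups did not overlap. The 0.11 and the -0.0028 came from libraries that went against their labels. Without the 3 such libraries the CKS1B difference was -0.36 (SE 0.16), and CENPF with EVI1-AQA stood 0.37 (SE 0.29) above the empty vector and 0.68 (SE 0.29) above EVI1-WT. All 3 missed the adjusted threshold with and without those libraries (limma).

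Whether the response to H2O2 differed between states was tested as the difference of the H2O2 effect. The states compared were empty vector with untransfected, each EVI1 form with the empty vector, and EVI1-AQA with EVI1-WT. The first of these does not bear on EVI1. In 4 such differences 0 of 40 values were called (limma), beside 0.101% of all rows, and 3 of 40 had an unadjusted p under 0.05, beside 7.96%. The CENPF effect was higher with EVI1-AQA than with the empty vector by 0.96 (SE 0.35, 95% interval 0.24 to 1.68, adjusted p = 0.207, limma) and than with EVI1-WT by 0.92 (SE 0.35, adjusted p = 0.404, limma). Without the 3 libraries that went against their labels the CENPF values were 0.82 and 1.00, with adjusted p = 0.381 and 0.290 (limma). For CKS1B the effect with EVI1-AQA was lower than with EVI1-WT by 0.38 on the log2 scale (a difference of -0.38, SE 0.18, adjusted p = 0.502, limma), and without the 3 libraries the difference was -0.46 (SE 0.20, adjusted p = 0.377, limma).

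EVI1-AQA H2O2 replicate 1 held the highest value of CDC20 (0.75), KIF2C (0.47), NEK2 (0.66), ASPM (0.65), KIF14 (0.48) and UBE2T (0.50). The other EVI1-AQA H2O2 replicates read 0.10 and -0.073 for CDC20 and 0.23 and -0.10 for ASPM, so these 2 genes have wide SDs in that group (0.43 and 0.38). CENPF was higher with H2O2 by 0.026 and 0.48 in the EVI1-AQA pairs of batches 2 and 3 as well.

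All 10 identifiers are protein-coding genes of chromosome 1 in GENCODE 44 on GRCh38. CDCA8 lies at chr1:37692481-37709719, CDC20 at chr1:43358981-43363203 and KIF2C at chr1:44739818-44767767, all on the plus strand of the short arm. NUF2 (chr1:163266576-163355764), ASPM (chr1:197084121-197146694), KIF14 (chr1:200551497-200620751), UBE2T (chr1:202331544-202341984), NEK2 (chr1:211658657-211675630) and CENPF (chr1:214603185-214664574) follow on the long arm, after CKS1B (chr1:154974653-154979251). Pseudogenes named after CDC20 (1), NEK2 (3) and CKS1B (7) are annotated. Their sequences were not compared, and the values of these genes are uncertain where reads could have been shared with a copy. No gene that overlaps 1 of the 10 had a row of its own.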

How the data were processed

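RNA of 24 HEK293 samples was sequenced with QuantSeq 3′ libraries (1 × 75 bases). Per the study's methods, the authors placed reads on GRCh38 with Ensembl 90 annotation (aligner not given in the sources used here) and used Qlucore 3.3 with an FPKM cut-off of 10. The deposited values are log2 expression, centred by row within each batch, so depth and precision from counts are unknown. The base was taken as 2 because expression ratios the study gives equal 2 to the power of the differences of group means.

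Groups and batches came from the labels. Group means were fitted to all 11579 rows with limma 3.58.1 in R 4.3.3, over 24 samples without a block, and Benjamini-Hochberg adjustment was made over all rows. The replicate number is the labelled batch, so it pairs the samples; the mean correlation of deviations was -0.14 for the same and 0.070 for different numbers, which the centring lowers. Because that centring had already removed the batch means, the fit without a block counts 16 residual degrees of freedom where the blocked fit counts 14. The 14 match the centred values, so p-values without a block tend to be too small. Calls lost with the block are therefore weak. The labels do not say that replicates came from separate cultures, so p-values measure the spread between these samples, which may be technical.

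The 10 genes and all lists were chosen with earlier results of these data known. All 10 genes are named; of each other list the counts are given, with up to 6 genes lowest by p for H2O2, from which those called are named, and the 8 rows most and 4 least like the mean of the 10. No filter on low values was applied. The alternatives were the replicate block, median centring, quantile normalization, left-out replicates or libraries, tests without moderation and exact sign flips over 12 pairs. Scripts were tested on simulated data. Promoters are from RefSeq (GRCh38.p14), and gene positions from GENCODE 44, in which 10892 identifiers were found.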

Additional observations from a re-analysis of the deposited data

Results flagged for a closer look

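The results in this part were picked out because every sample of one group moved one way and every sample of another moved the opposite way. The H2O2 effect on CENPF, the kinetochore gene, was -0.67 in untransfected cells, -0.53 with the empty vector and -0.49 with EVI1-WT, and 0.43 with EVI1-AQA. The effect with EVI1-AQA thus exceeded that in untransfected cells by 1.10, that with the empty vector by 0.96 and that with EVI1-WT by 0.92. Seen from the plasmids, EVI1-AQA minus empty vector went from -0.45 untreated to 0.51 with H2O2, and EVI1-AQA minus EVI1-WT from -0.32 to 0.60. The interaction tests against the empty vector and EVI1-WT missed the threshold (adjusted p = 0.207 and 0.404, limma; 0.381 and 0.290 without the 3 libraries that went against their labels), and the difference from untransfected cells was not tested.

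CKS1B, the cyclin-dependent kinase subunit, showed the opposite arrangement. Its H2O2 effect was 0.031 in untransfected cells and 0.16 with EVI1-WT, and -0.21 with EVI1-AQA. The differences were -0.24 from untransfected cells, which was not tested, and -0.38 from EVI1-WT (adjusted p = 0.502, limma). EVI1-AQA H2O2 replicate 1 and EVI1-WT H2O2 replicate 2, on which these values rest in part, went against their labels, and without the 3 such libraries the difference from EVI1-WT was -0.46 (adjusted p = 0.377, limma). EVI1-AQA minus EVI1-WT went from 0.099 untreated to -0.28 with H2O2.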

How the results depend on the processing

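The replicate block changed the calls of the F-test from 2 to 0 genes, of the empty vector against untransfected cells from 1 to 0, and of each EVI1 form against untransfected cells from 4 to 3. Among the 30 other mitosis genes, those higher and lower in transfected cells went from 8 and 2 to 5 and 0. The share of all rows called in that comparison went from 21.4% to 16.1%. The block changed no call of the 10 genes in the remaining comparisons. Without single replicates, the F-test called 0 to 2 genes, the empty vector comparison 0 to 3, the transfected against untransfected comparison 0 to 6, EVI1-WT and EVI1-AQA against untransfected cells 0 to 4 each, and the 8 plasmid comparisons within a treatment 0 to 1 (KIF2C, without replicate 1). Without the 3 libraries that went against their labels the F-test called 1 gene (KIF2C), the empty vector comparison 0, and H2O2 1 (CENPF). Quantile normalization gave 1 for H2O2 (CENPF) and 0 for the empty vector, which was also 0 without moderation. With untransfected cells as the reference, EVI1-WT and EVI1-AQA called 4 genes each. With the bases before the start alone, 5 genes held the CHR letters. Values set within batches, unknown depth and 3 samples a group limit what could be detected, and row labels outside chromosomes 1 and X were not relied on.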
